A study of Arabidopsis with 12 samples.

Results

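The comparison set pad4 against wild type in Arabidopsis thaliana seedlings of the libraries labelled +Fe, 3 of each genotype, across every locus at 1 FPKM or more in at least 3 of these 6 libraries. FPKM counts fragments relative to transcript length and to all fragments mapped. Of 28693 loci in the expression table, 19398 met that rule. The series holds 12 libraries, with 3 each of wild type and pad4 labelled +Fe and 3 each labelled -Fe, and asks how loss of PAD4 alters transcription when Fe is supplied or withheld. The wild type was Col-0, and pad4 was the phytoalexin deficient 4 mutant, whose allele and background the labels used here do not give. All plants grew on agar-solidified MS medium at 24 °C with a 16 h day at 140 µmol photons per square metre and second. Per the labels, the +Fe groups were on complete medium and the -Fe groups on medium lacking Fe, for 7 d. The labels do not say whether libraries of a group came from separate cultures, so p-values measure the spread between these libraries, which may be technical.

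PAD4 and EDS1 are lipase-like proteins that pair with each other in immune signalling below intracellular resistance receptors. EDS1 also pairs with SAG101. The EDS1-PAD4 pair promotes the synthesis of salicylic acid through ICS1 and so the expression of PR genes, and pad4 was first isolated as a mutant that makes little of the phytoalexin camalexin. Salicylic acid and jasmonate signalling often restrain each other in leaves.

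The libraries were first set against their labels. The Fe labels run against the Fe marker genes: bHLH100, a transcription factor gene induced when Fe is short, was at 976, 1033 and 982 FPKM in wild type labelled +Fe and 0.666, 0.647 and 0.42 FPKM in wild type labelled -Fe. FER1, a ferritin gene raised by Fe, was at 10.7, 11.8 and 10.3 and 294, 333 and 307 FPKM in the same groups. The groups are therefore called by their label, and "at +Fe" means in libraries so labelled. The labels name the tissue as shoot, as leaves and roots, and as whole seedlings. The 19 photosynthesis genes summed to 25764 to 32454 FPKM per library. The 16 root markers summed to 318.9 to 340.6 FPKM, of which PYK10 made up 296 FPKM in wild type and 290.1 FPKM in pad4. Of the 16, 7 met the rule for testing. The root hair gene EXP7 was the only 1 of them listed at 0 in all 6 libraries. Absolute depth is unknown, and relative depth, read from the lowest values, was 0.76 to 1.00. Library 2 of each genotype stood apart from libraries 1 and 3. On the first principal component of the 6 libraries (49.3% of the variance), wild-type libraries lay at -27, -3.35 and -27.03 and pad4 libraries at 9.33, 35.19 and 12.85, so the genotypes did not overlap. Same-numbered libraries labelled +Fe deviated from their group together (correlations over loci of 0.207 to 0.506). Unlike-numbered libraries 1 and 3 did so too (0.194 and 0.119), so these values do not settle how libraries 1 and 3 pair. Same-numbered libraries labelled -Fe did not: wild-type and pad4 libraries had correlations of -0.001, -0.464 and -0.434. A fit of the +Fe libraries with the library number as a block, the paired fit, was chosen from these data. It is given where it changes a call.

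In pad4 at +Fe, 12 of 14 phenylpropanoid genes, 6 of 13 camalexin and indole glucosinolate genes and 5 of 13 salicylic acid synthesis genes were lower. So were 6 of 12 genes of jasmonate synthesis and turnover and 4 of 8 genes of the jasmonate and ethylene branch. Higher were 9 of 11 heat shock genes and 5 of 11 cytokinin genes. At a Benjamini-Hochberg adjusted p under 0.05 in limma, 1906 loci (9.83%) were called, 756 higher (3.9%) and 1150 lower (5.93%) in pad4. Most differences were small: the called loci had a median absolute difference of 0.50 on the log2(FPKM + 1) scale, on which every difference below is given as pad4 minus wild type. Only 137 of them reached 1 log2 unit, 67 higher and 70 lower. The wild-type and pad4 libraries did not overlap at 6233 loci (32.1%), among them 1903 of the called loci. The paired fit called 6032 loci (31.1%), 3053 higher (15.7%) and 2979 lower (15.4%), among them 1887 of the 1906. That fit moved the share of calls that were higher from 39.7% to 50.6%. Each list count from the paired fit below stands beside its 15.7% higher and 15.4% lower over all loci. Single libraries moved the count by over 1.5 times: it fell to 1042 without wild-type library 1, 1075 without wild-type library 3, 1231 without pad4 library 2 and 1226 without pad4 library 3. Without library 2 of both genotypes it was 901.

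**Figure D1:**
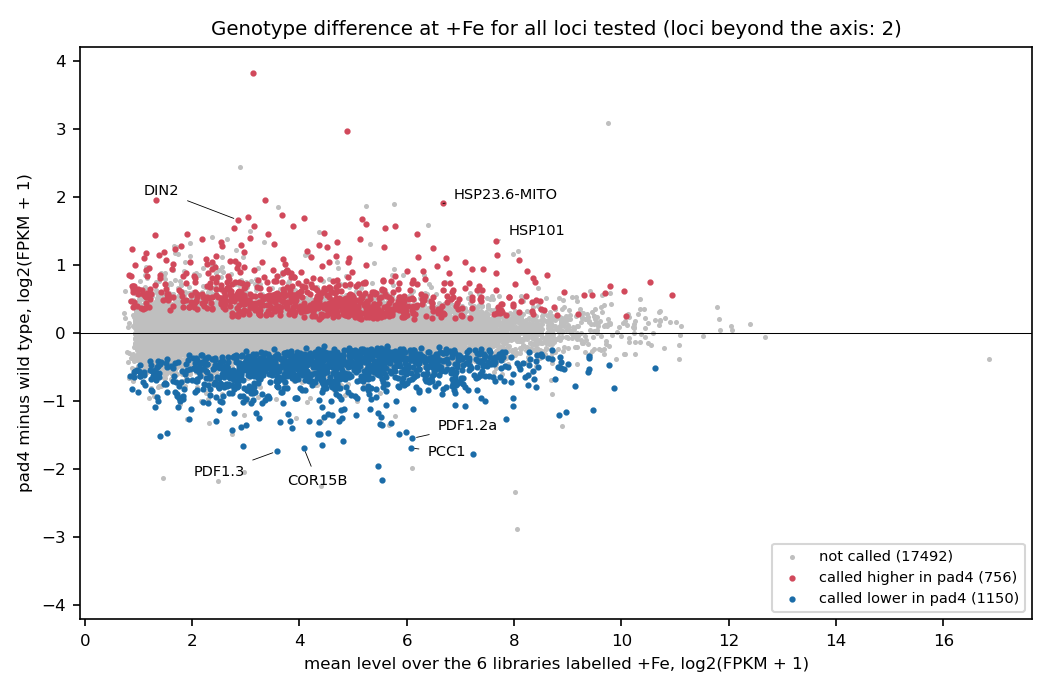
Each point is 1 locus tested at +Fe, with its mean level over the 6 libraries on the x axis and the pad4 minus wild-type difference on the y axis, both on the log2(FPKM + 1) scale. Called loci (756 higher in red, 1150 lower in blue) lie mostly within 1 log2 unit of 0 and at all levels, and named genes such as HSP23.6-MITO and PDF1.3 mark the outer edge.

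**Figure D2:**
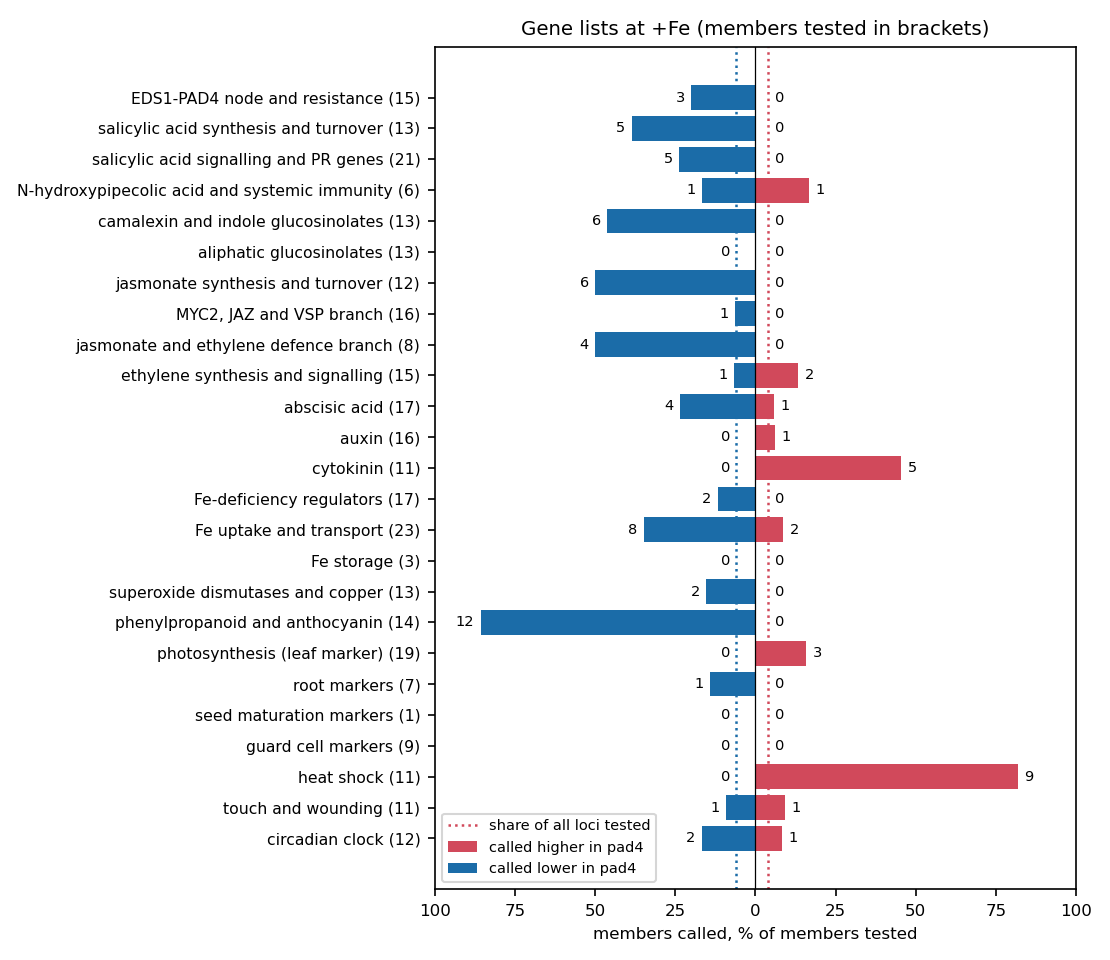
Bars give the share of tested members of each gene list called lower (left, blue) or higher (right, red) in pad4 at +Fe, with the number of members at the bar's end and the share over all loci tested as dotted lines. The phenylpropanoid list (12 of 14 lower) and the heat shock list (9 of 11 higher) reach furthest in each direction.

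PAD4 itself, the mutated gene, was measured first. PAD4 (AT3G52430, chromosome 3, 19431371 to 19434403 on TAIR10) stood at 21.97, 19.6 and 21.3 FPKM in wild-type libraries 1 to 3 and 13.6, 11.1 and 13.0 FPKM in pad4 libraries 1 to 3. Every pad4 library was below every wild-type library, and transcript remained (log2 difference -0.70, SE 0.09, adjusted p = 0.000965). Of 15 tested genes of the EDS1-PAD4 node and of resistance receptors, 3 were called lower and none higher, with a median difference of -0.16 against 0.02 over all loci tested. The other 2 were NDR1 (AT3G20600, chromosome 3, 7194846 to 7195736), needed by a class of resistance receptors, and ADR1-L1 (AT4G33300, chromosome 4, 16049573 to 16056526), a helper receptor that acts with EDS1 and PAD4. ADR1-L1 was at 61.5, 62.8 and 62.0 FPKM in wild-type libraries 1 to 3 and 49.7, 51.1 and 49.1 FPKM in pad4 libraries 1 to 3 (-0.31, SE 0.05, adjusted p = 0.00398). NDR1 fell from a mean of 30.8 to 23.55 FPKM (-0.37, SE 0.10, adjusted p = 0.0329), a call that ended without wild-type library 1 or 3 or pad4 library 1, 2 or 3 (adjusted p up to 0.132). EDS1, which pairs with PAD4, and SAG101 were not called. EDS1 was at 45.1, 50.2 and 44.7 FPKM in wild-type libraries 1 to 3 and 40.8, 42.2 and 40.1 FPKM in pad4 libraries 1 to 3, a difference of -0.18, adjusted p = 0.308 that the paired fit called lower (adjusted p = 0.0253). SAG101, the other partner of EDS1, overlapped between genotypes at 30.4 ± 2.88 FPKM in wild type and 31.9 ± 1.26 FPKM in pad4 (SD, n = 3; 0.07, adjusted p = 0.648). With the block, 6 of the 15 were called lower and none higher.

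**Figure D3:**
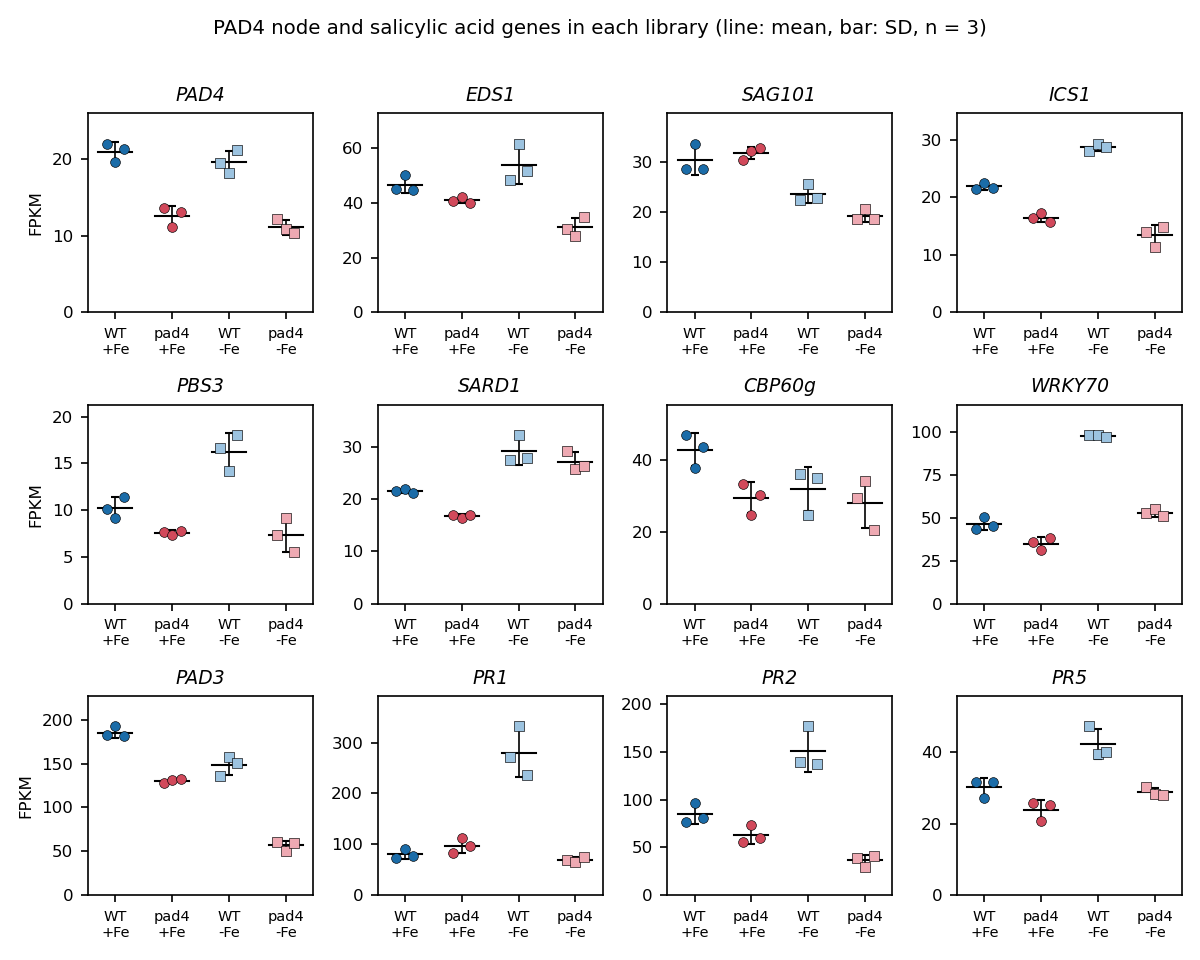
FPKM of 12 genes of the PAD4 node, salicylic acid synthesis and immune output in each library (points), with the mean (line) and SD (bar) of the 3 libraries of each group; circles are libraries labelled +Fe and squares those labelled -Fe. At +Fe the pad4 points lie below the wild-type points for PAD4, ICS1, SARD1 and PAD3, whereas those of PR1 overlap.

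Part of the salicylic acid synthesis genes were lower in pad4, by under 1 log2 unit. Of 13 tested genes, 5 were called lower (38.5%) and none higher, with a list median of -0.38. ICS1 (AT1G74710, chromosome 1, 28070295 to 28074148), the isochorismate synthase that makes most pathogen-induced salicylic acid, was at 21.4, 22.5 and 21.5 FPKM in wild-type libraries 1 to 3 and 16.3, 17.2 and 15.7 FPKM in pad4 libraries 1 to 3. Its groups did not overlap (log2 difference -0.39, SE 0.09, adjusted p = 0.0157), but the call ended without wild-type library 1 or 3 or pad4 library 1 or 3 (adjusted p up to 0.0658). ICS2, its low-expressed paralog, fell from a mean of 3.01 to 1.46 FPKM (-0.71, SE 0.12, adjusted p = 0.00346). EDS5 (AT4G39030, chromosome 4, 18185667 to 18190556), which exports the isochorismate product from the chloroplast, was at 14.4, 13.0 and 15.4 FPKM in wild-type libraries 1 to 3 and 9.43, 10.2 and 10.2 FPKM in pad4 libraries 1 to 3 (-0.48, SE 0.09, adjusted p = 0.00723). Again all pad4 libraries were below all wild-type libraries. SARD1, a transcription factor that activates ICS1, fell from 21.6 to 16.8 FPKM (-0.34, SE 0.07, adjusted p = 0.0139), and its call ended without wild-type library 1 or pad4 library 2 (adjusted p up to 0.057). DMR6 (AT5G24530, chromosome 5, 8378833 to 8383401), a salicylic acid hydroxylase that limits the hormone, had the smallest adjusted p of the list. It was at 72.3, 74.3 and 71.3 FPKM in wild-type libraries 1 to 3 and 43.4, 40.5 and 40.4 FPKM in pad4 libraries 1 to 3 (-0.80, SE 0.06, adjusted p = 3.38e-05). PBS3, which conjugates isochorismate to glutamate, and CBP60g, a partner of SARD1 in activating ICS1, were lower in every pad4 library without a call: PBS3 averaged 10.2 ± 1.13 FPKM in wild type and 7.61 ± 0.248 FPKM in pad4 (-0.38, adjusted p = 0.137) and CBP60g 42.7 ± 4.599 FPKM in wild type and 29.4 ± 4.33 FPKM in pad4 (-0.53, adjusted p = 0.117). Both were called lower with the block (adjusted p = 0.0112 and 0.00112), as were 8 of the 13 in all, with none higher. The count of lower calls was 3 without wild-type library 1, and 3 without library 2 of both genotypes.

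Among 21 tested genes of salicylic acid signalling and response, 5 were called lower (23.8%) and none higher, with a median of -0.19. PCC1 (AT3G22231, chromosome 3, 7845823 to 7846605), a small pathogen-responsive membrane protein gene, fell most. PCC1 was at 81.4, 139 and 85.4 FPKM in wild-type libraries 1 to 3 and 24.5, 33.5 and 33.0 FPKM in pad4 libraries 1 to 3, and its groups did not overlap (-1.69, SE 0.19, adjusted p = 0.00027). The others were transcription factors and a regulator of NPR1. WRKY53 (AT4G23810, chromosome 4, 12390167 to 12393982) was at 112, 93.0 and 109 FPKM in wild-type libraries 1 to 3 and 69.2, 53.0 and 68.7 FPKM in pad4 libraries 1 to 3 (-0.71, SE 0.14, adjusted p = 0.00748). WRKY40, a repressor of defence genes, fell from 144 to 91.9 FPKM (-0.65, SE 0.13, adjusted p = 0.00915). WRKY70, which acts between salicylic acid and jasmonate signalling, was at 43.7, 50.6 and 45.2 FPKM in wild-type libraries 1 to 3 and 35.6, 31.0 and 38.1 FPKM in pad4 libraries 1 to 3 (-0.41, SE 0.08, adjusted p = 0.00894). NIMIN2, which binds NPR1, fell from 14.99 to 11.1 FPKM (-0.41, adjusted p = 0.0128). Without library 2 of both genotypes 3 of the 21 were called lower, and WRKY70 was no longer among them.

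The PR genes, the classical readout of salicylic acid, were not called at +Fe. PR1 (AT2G14610, chromosome 2, 6241704 to 6242463) was at 73.1, 91.5 and 76.7 FPKM in wild-type libraries 1 to 3 and 83.1, 112 and 97.1 FPKM in pad4 libraries 1 to 3. The groups overlapped and the pad4 mean was the higher (0.27, SE 0.14, adjusted p = 0.277). PR2, a glucanase, was at 76.4, 96.3 and 80.8 FPKM in wild-type libraries 1 to 3 and 55.1, 73.4 and 60.0 FPKM in pad4 libraries 1 to 3 and lower in every pad4 library (-0.42, SE 0.15, adjusted p = 0.107). PR5, a thaumatin-like protein, averaged 30.2 ± 2.65 FPKM in wild type and 23.9 ± 2.72 FPKM in pad4 (-0.33, SE 0.10, adjusted p = 0.066), and was called lower without wild-type library 2 (adjusted p = 0.0445). The paired fit called all 3, PR1 higher (adjusted p = 0.00775) and PR2 and PR5 lower (0.00129 and 0.00439). It called 9 of the 21 lower and 1 higher. NPR1, the salicylic acid receptor and coactivator, was at 52.2, 66.0 and 50.6 FPKM in wild-type libraries 1 to 3 and 52.8, 65.8 and 52.8 FPKM in pad4 libraries 1 to 3 and overlapped between genotypes (0.02, adjusted p = 0.937).

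Of 6 tested genes of N-hydroxypipecolic acid, the mobile signal of systemic immunity, and its partners, 1 was called in each direction. ALD1 (AT2G13810, chromosome 2, 5768446 to 5772259), the aminotransferase at the start of that pathway, was at 3.11, 3.22 and 3.13 FPKM in wild-type libraries 1 to 3 and 1.29, 1.199 and 1.36 FPKM in pad4 libraries 1 to 3 (-0.86, SE 0.13, adjusted p = 0.00159). DIR1, a lipid transfer protein of systemic immunity, rose from 55.3 to 79.3 FPKM (0.51, SE 0.08, adjusted p = 0.00333). FMO1, the last enzyme, overlapped between genotypes at 3.99 ± 0.431 FPKM in wild type and 3.59 ± 0.248 FPKM in pad4 (-0.12, adjusted p = 0.504).

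Genes for camalexin and indole glucosinolates, the tryptophan-derived defence compounds, were in part lower in pad4. Of 13 tested members, 6 were called lower (46.2%) and none higher, with a median of -0.31, and the count was 6 under each omission of 1 library or of library 2 of both genotypes. PAD3 (AT3G26830, chromosome 3, 9887948 to 9889705), the P450 that completes camalexin, was at 183, 193 and 182 FPKM in wild-type libraries 1 to 3 and 128, 131 and 133 FPKM in pad4 libraries 1 to 3. All 3 pad4 libraries lay below the lowest wild-type library (-0.50, SE 0.08, adjusted p = 0.00237). CYP81F2 (AT5G57220, chromosome 5, 23187840 to 23189857), which modifies indole glucosinolates, was at 159.5, 159 and 154 FPKM in wild-type libraries 1 to 3 and 93.6, 97.6 and 96.5 FPKM in pad4 libraries 1 to 3 (-0.71, SE 0.08, adjusted p = 0.000224). GGP1, which processes glutathione conjugates of both pathways, was at 769, 830.4 and 782 FPKM in wild-type libraries 1 to 3 and 509, 579.6 and 522 FPKM in pad4 libraries 1 to 3 (-0.56, SE 0.07, adjusted p = 0.00055). PEN2, the myrosinase that activates indole glucosinolates on attack, fell from 264 to 189 FPKM (-0.48, SE 0.07, adjusted p = 0.0014). CYP83B1, an enzyme of indole glucosinolate synthesis, and the exporter PEN3 fell as well (-0.65, adjusted p = 0.00629 and -0.34, adjusted p = 0.00782). The P450 genes at the head of the pathway, CYP79B2 (76.6 FPKM in wild type and 75.2 FPKM in pad4) and CYP79B3 (63.9 FPKM in wild type and 69.3 FPKM in pad4), were not called (-0.03, adjusted p = 0.865 and 0.11, adjusted p = 0.649). None of 13 aliphatic glucosinolate genes was called in limma (1 had an unadjusted p under 0.05), with a median of -0.04 and 6 of them positive. Of the 13, 3 were lower (15.4% of all loci) and 1 higher (15.7% of all loci) with the block, among the 3 the myrosinase TGG1, which averaged 1352 ± 61.6 FPKM in wild type and 1234 ± 49.4 FPKM in pad4 (paired adjusted p = 0.0491).

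Several genes of jasmonate synthesis and of its defensin branch were lower in pad4. Of 12 tested genes of jasmonate synthesis and turnover, 6 were called lower (50%) and none higher, with a median of -0.29. AOS (AT5G42650, chromosome 5, 17097595 to 17099395), the allene oxide synthase that commits the pathway, was at 151, 156 and 152 FPKM in wild-type libraries 1 to 3 and 117, 119 and 124 FPKM in pad4 libraries 1 to 3 (-0.35, SE 0.06, adjusted p = 0.00381). AOC3 (AT3G25780, chromosome 3, 9409290 to 9410567), the allene oxide cyclase of the next step, was at 118, 112 and 121 FPKM in wild-type libraries 1 to 3 and 82.1, 75.5 and 81.0 FPKM in pad4 libraries 1 to 3 (-0.55, SE 0.06, adjusted p = 0.000194). OPR3, the reductase that follows, fell from 144 to 110.1 FPKM (-0.38, SE 0.06, adjusted p = 0.00342), and CYP94C1, which oxidises the active hormone conjugate, from 4.599 to 3.09 FPKM (-0.45, SE 0.09, adjusted p = 0.00903). AOC1 and AOC2, neighbours of AOC3 and alike in sequence, were called lower as well, and how reads were split among the 3 is not known. The paired fit called 9 of the 12 lower, and the count was 3 without library 2 of both genotypes. In the MYC2, JAZ and VSP branch, which answers wounding, 1 of 16 genes was called: VSP2, a vegetative storage protein, fell from 29.4 to 20.3 FPKM (-0.51, SE 0.10, adjusted p = 0.00691). With the block, 5 of the 16 were lower and 1 was higher, against 15.4% and 15.7% of all loci.

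In the branch driven by jasmonate and ethylene together, 4 of 8 tested genes were called lower and none higher, with a median of -0.99. ORA59 (AT1G06160, chromosome 1, 1883004 to 1883934), the factor that switches on defensins, was at 10.1, 10.7 and 9.45 FPKM in wild-type libraries 1 to 3 and 6.29, 4.94 and 5.92 FPKM in pad4 libraries 1 to 3 (-0.73, SE 0.11, adjusted p = 0.00167). The defensin genes it acts on differed by more. PDF1.3 (AT2G26010, chromosome 2, 11087348 to 11087944) was at 18.1, 13.6 and 20.1 FPKM in wild-type libraries 1 to 3 and 5.94, 3.05 and 4.68 FPKM in pad4 libraries 1 to 3 (-1.74, SE 0.34, adjusted p = 0.00745). PDF1.2a (AT5G44420, chromosome 5, 17907069 to 17907598) was at 119, 69.4 and 116 FPKM in wild-type libraries 1 to 3 and 42.9, 22.6 and 37.4 FPKM in pad4 libraries 1 to 3 (-1.55, SE 0.35, adjusted p = 0.0163). In both genotypes library 2 held the lowest value, and the genotypes did not overlap. PDF1.2c averaged 63.9 ± 19.4 FPKM in wild type and 24.5 ± 6.26 FPKM in pad4 (-1.33, SE 0.36, adjusted p = 0.041). PDF1.2b averaged 20.4 ± 6.91 FPKM in wild type and 8.28 ± 4.07 FPKM in pad4 without a call (-1.24, adjusted p = 0.117; paired adjusted p = 0.000548). These defensins are near-identical copies between which reads may be split. The call on PDF1.2a ended without wild-type library 1 or 3 or pad4 library 2 (adjusted p up to 0.0731), and that on PDF1.2c without wild-type library 1 or 3 or pad4 library 1, 2 or 3 (adjusted p up to 0.151) and with no filter. The list count was 2 without wild-type library 1, wild-type library 3 or pad4 library 2, and the paired fit called 6 of the 8 lower.

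Phenylpropanoid and anthocyanin genes showed the highest share of calls among the lists. Of 14 tested genes, 12 were called lower (85.7%) and none higher, with a median of -0.63. The count was 10 or 11 when 1 library was left out, 10 without library 2 of both genotypes and 13 in the paired fit. PAL1 (AT2G37040, chromosome 2, 15557376 to 15560363), the phenylalanine ammonia-lyase at the entry, was at 163, 139 and 160.4 FPKM in wild-type libraries 1 to 3 and 88.7, 76.3 and 84.1 FPKM in pad4 libraries 1 to 3 (-0.89, SE 0.11, adjusted p = 0.000612). CHS, the first flavonoid enzyme, averaged 357 ± 17.41 FPKM in wild type and 259 ± 3.48 FPKM in pad4 (-0.46, SE 0.09, adjusted p = 0.00851). F3H (AT3G51240, chromosome 3, 19025192 to 19026872), a hydroxylase midway, was at 111, 99.0 and 112 FPKM in wild-type libraries 1 to 3 and 62.2, 59.4 and 56.6 FPKM in pad4 libraries 1 to 3 (-0.84, SE 0.07, adjusted p = 4.78e-05). At each of these steps the highest pad4 library lay below the lowest wild-type library. FLS1 (AT5G08640, chromosome 5, 2803957 to 2805606), which makes flavonols, was at 33.8, 35.2 and 33.4 FPKM in wild-type libraries 1 to 3 and 17.0, 18.7 and 16.8 FPKM in pad4 libraries 1 to 3 (-0.93, SE 0.07, adjusted p = 3.58e-05). DFR, the first step towards anthocyanin, was at 41.0, 37.5 and 43.4 FPKM in wild-type libraries 1 to 3 and 26.2, 23.4 and 23.7 FPKM in pad4 libraries 1 to 3 (-0.71, SE 0.08, adjusted p = 0.000196). The MYB activators of anthocyanin genes, PAP1 and PAP2, fell from 23.3 to 13.7 FPKM (-0.72, adjusted p = 0.00381) and from 13.2 to 6.27 FPKM (-0.96, adjusted p = 0.00187). LDOX, the anthocyanidin synthase, averaged 35.4 ± 5.50 FPKM in wild type and 25.9 ± 5.32 FPKM in pad4 with overlap and without a call (-0.44, adjusted p = 0.134; paired adjusted p = 0.0026). MYB12, an activator of flavonol genes, was not called, at 3.03 ± 0.663 FPKM in wild type and 3.04 ± 0.333 FPKM in pad4 (0.01, adjusted p = 0.959).

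Beyond the lists, the 12 largest falls were taken among called genes with a symbol, a mean of 5 FPKM or more in either genotype and groups that did not overlap. ACD6 (AT4G14400, chromosome 4, 8294446 to 8298602), an ankyrin membrane protein that promotes salicylic acid-dependent defence, was at 92.4, 89.5 and 93.7 FPKM in wild-type libraries 1 to 3 and 33.9, 32.7 and 32.4 FPKM in pad4 libraries 1 to 3. It had the smallest adjusted p of all called genes with a symbol (-1.45, SE 0.06, adjusted p = 2.88e-07). RLP23 (AT2G32680, chromosome 2, 13857877 to 13862614), a receptor-like protein that recognises a microbial peptide, was at 29.4, 34.2 and 30.9 FPKM in wild-type libraries 1 to 3 and 10.0, 9.61 and 8.61 FPKM in pad4 libraries 1 to 3 (-1.64, SE 0.08, adjusted p = 9.77e-07). CRK6 (AT4G23140, chromosome 4, 12121383 to 12124205), a cysteine-rich receptor-like kinase, was at 29.1, 28.0 and 29.1 FPKM in wild-type libraries 1 to 3 and 9.90, 8.62 and 10.6 FPKM in pad4 libraries 1 to 3 (-1.48, SE 0.07, adjusted p = 9.77e-07). In these 3 genes the spread within a genotype was small beside the gap. MDHAR (AT3G09940, chromosome 3, 3056375 to 3059148), a monodehydroascorbate reductase, was at 9.79, 11.5 and 10.7 FPKM in wild-type libraries 1 to 3 and 2.91, 2.64 and 2.53 FPKM in pad4 libraries 1 to 3 (-1.66, SE 0.08, adjusted p = 9.77e-07). TAT3, a tyrosine aminotransferase gene induced by jasmonate, was at 46.5, 32.4 and 43.8 FPKM in wild-type libraries 1 to 3 and 14.9, 9.58 and 14.5 FPKM in pad4 libraries 1 to 3 (-1.59, SE 0.24, adjusted p = 0.002). PCR1, named for plant cadmium resistance, fell from 33.0 to 11.4 FPKM (-1.47, SE 0.13, adjusted p = 5.29e-05). DMP1 fell from 8.77 to 2.65 FPKM (-1.42, SE 0.22, adjusted p = 0.00221). COR15B (AT2G42530, chromosome 2, 17709036 to 17709945), a cold-regulated chloroplast protein gene, was at 27.8, 22.2 and 24.3 FPKM in wild-type libraries 1 to 3 and 6.98, 5.85 and 8.30 FPKM in pad4 libraries 1 to 3 (-1.69, SE 0.13, adjusted p = 2.75e-05). PCC1 and the 3 defensins given above complete these 12.

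The 12 largest rises, taken by the same rule, included HSP23.6-MITO, HSFA7A, BAG6 and HSP101, given further on. DIN2 (AT3G60140, chromosome 3, 22216672 to 22220824), a beta-glucosidase gene induced in the dark, was at 2.26, 2.80 and 2.29 FPKM in wild-type libraries 1 to 3 and 9.58, 11.6 and 8.67 FPKM in pad4 libraries 1 to 3 (1.66, SE 0.12, adjusted p = 2.67e-05). DIN10 (AT5G20250, chromosome 5, 6833659 to 6836782), a raffinose synthase-like gene also induced in the dark, was at 14.1, 13.2 and 13.9 FPKM in wild-type libraries 1 to 3 and 36.3, 36.2 and 36.4 FPKM in pad4 libraries 1 to 3 (1.34, SE 0.07, adjusted p = 1.44e-06). The 3 pad4 values of DIN10 were nearly equal. BXL1 (AT5G49360, chromosome 5, 20011879 to 20016742), a beta-xylosidase of the cell wall, was at 10.8, 10.8 and 10.4 FPKM in wild-type libraries 1 to 3 and 32.0, 28.8 and 32.8 FPKM in pad4 libraries 1 to 3 (1.46, SE 0.08, adjusted p = 1.44e-06). bZIP1 (AT5G49450, chromosome 5, 20051829 to 20052735), a transcription factor of the low-energy response, was at 6.29, 7.17 and 5.87 FPKM in wild-type libraries 1 to 3 and 19.8, 22.5 and 20.9 FPKM in pad4 libraries 1 to 3 (1.57, SE 0.14, adjusted p = 5.55e-05). BT5, a BTB and TAZ domain protein gene, was at 2.98, 3.70 and 3.86 FPKM in wild-type libraries 1 to 3 and 12.6, 12.7 and 11.7 FPKM in pad4 libraries 1 to 3 (1.57, SE 0.09, adjusted p = 2.1e-06). For all of these the lowest pad4 library lay above the highest wild-type library, which the rule required. GASA6, a gibberellin-regulated peptide gene, rose from 23.64 to 70.6 FPKM (1.55, SE 0.12, adjusted p = 3.58e-05). ATCTH, a CCCH zinc finger gene, rose from 2.43 to 7.33 FPKM (1.28, SE 0.12, adjusted p = 0.000106). LHCB2.3, an antenna protein gene, rose from 27.1 to 66.7 FPKM (1.27, SE 0.09, adjusted p = 2.27e-05).

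**Figure D4:**
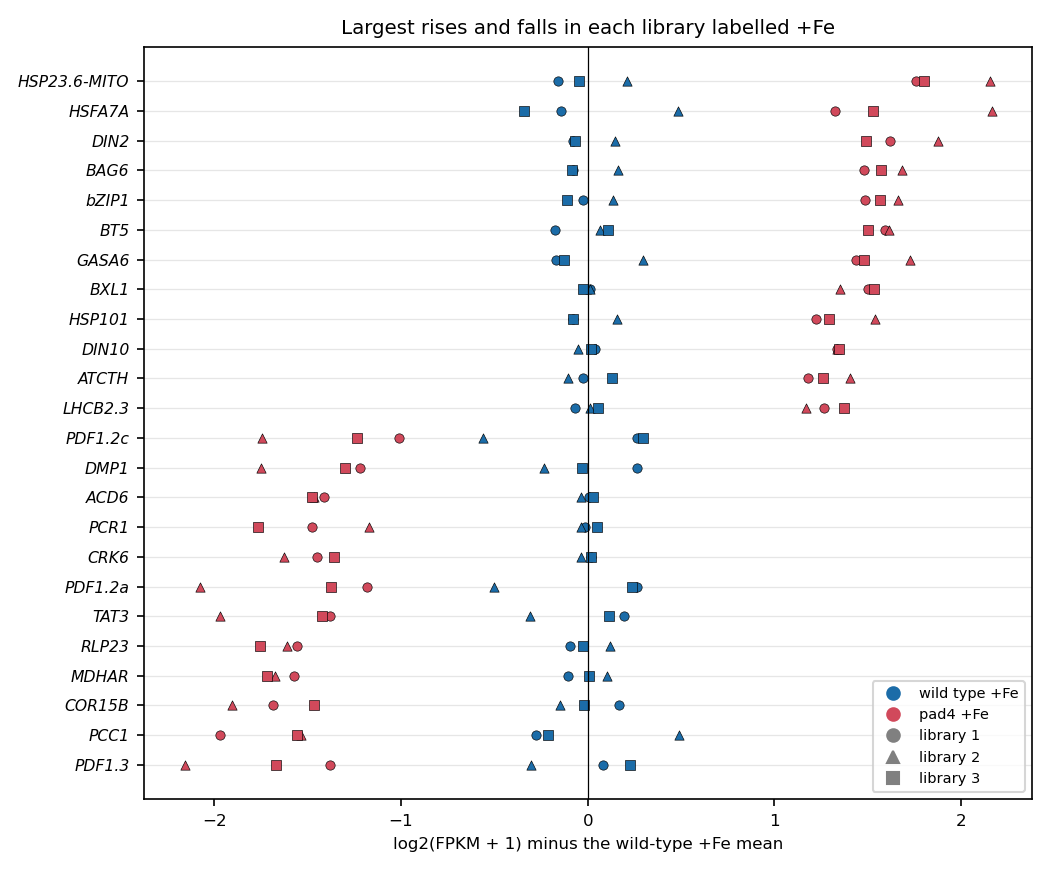
For the 12 largest rises (upper rows) and 12 largest falls (lower rows), each point is 1 library labelled +Fe, as log2(FPKM + 1) minus the wild-type mean; blue is wild type, red pad4, and the shape gives the library number. The red points stand clear of the blue ones in every row because the rule for these genes required it. The triangles of library 2 often sit to the same side in both genotypes.

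Most listed heat shock genes were higher in pad4 at +Fe. Of 11 listed, 9 were called higher (81.8%) and none lower, with a median of 0.83. Of all 22 tested genes with an HSP symbol, 11 were called higher (50%) and 1 lower. The lower one, Hsp70-2, fell from 189 to 140 FPKM (-0.43, SE 0.08, adjusted p = 0.0067). The summed level of the 11 listed genes was 2069, 2598 and 2062 FPKM in wild type and 3558, 4738 and 3630.2 FPKM in pad4. HSP23.6-MITO (AT4G25200, chromosome 4, 12917017 to 12918053), a mitochondrial small heat shock protein outside the list, was at 37.3, 48.5 and 40.4 FPKM in wild-type libraries 1 to 3 and 144, 189 and 148 FPKM in pad4 libraries 1 to 3, the largest rise by the naming rule (1.90, SE 0.15, adjusted p = 3.28e-05). HSP101 (AT1G74310, chromosome 1, 27935298 to 27940190), a chaperone that dissolves protein aggregates, was at 106, 125 and 107 FPKM in wild-type libraries 1 to 3 and 264, 328 and 277 FPKM in pad4 libraries 1 to 3 (1.35, SE 0.13, adjusted p = 9.19e-05). In these genes library 2 was the highest of each genotype. The genotypes did not overlap, which the rule for the largest rises required. HSFA2, a heat stress transcription factor, was at 56.3, 69.4 and 63.1 FPKM in wild-type libraries 1 to 3 and 124, 138 and 114 FPKM in pad4 libraries 1 to 3 (0.98, SE 0.09, adjusted p = 9.93e-05). HSFA7A (AT3G51910, chromosome 3, 19265110 to 19266619), a related factor, was at 14.1, 22.4 and 12.2 FPKM in wild-type libraries 1 to 3 and 40.8, 73.9 and 47.2 FPKM in pad4 libraries 1 to 3 (1.67, SE 0.31, adjusted p = 0.00551). The cytosolic small heat shock protein HSP17.4 was at 43.1, 44.1 and 48.3 FPKM in wild-type libraries 1 to 3 and 92.5, 119.9 and 88.4 FPKM in pad4 libraries 1 to 3 (1.12, SE 0.12, adjusted p = 0.000189). Its relatives HSP17.6A and HSP17.6II rose from 87.7 to 183 FPKM (1.04, adjusted p = 0.000189) and from 89.4 to 137 FPKM (0.61, adjusted p = 0.0035). BAG6, a cochaperone, was at 25.1, 29.9 and 25.1 FPKM in wild-type libraries 1 to 3 and 76.1, 87.6 and 81.0 FPKM in pad4 libraries 1 to 3 (1.58, SE 0.13, adjusted p = 5.25e-05). HSP70T-2 and EGY3, a chaperone and a peptidase-like gene, rose from 9.75 to 17.9 FPKM (0.82, adjusted p = 0.000152) and from 10.3 to 20.2 FPKM (0.90, adjusted p = 0.000152). HSP90.1 rose from 673 to 1091 FPKM (0.69, SE 0.13, adjusted p = 0.00723), and HSP70 from 1102 to 1859 FPKM (0.75, SE 0.20, adjusted p = 0.036). The call on HSP70 ended without wild-type library 1 or 3 or pad4 library 2 or 3 (adjusted p up to 0.139), with no filter and with quantile normalization. HSP21, a chloroplast small heat shock protein, was not called, at 1.3 ± 0.301 FPKM in wild type and 1.45 ± 0.473 FPKM in pad4 (0.08, adjusted p = 0.765). The count was 7 without library 2 of both genotypes and 9 in the paired fit. The small heat shock proteins are alike in sequence, so reads may be split between copies.

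Among hormone lists, only that of cytokinin had more than 2 members called higher. Of 11 tested, 5 were called higher (45.5%) and none lower, all 11 differences were above 0, and the median was 0.50. Pairing gave 7 higher calls, and the count was 4 without library 2 of both genotypes. ARR7 (AT1G19050, chromosome 1, 6577833 to 6579178), a type-A response regulator induced by cytokinin, was at 35.8, 45.4 and 34.0 FPKM in wild-type libraries 1 to 3 and 61.1, 77.1 and 68.7 FPKM in pad4 libraries 1 to 3 (0.83, SE 0.12, adjusted p = 0.00176). ARR6, of the same class, was at 11.1, 15.6 and 12.8 FPKM in wild-type libraries 1 to 3 and 21.1, 22.3 and 23.2 FPKM in pad4 libraries 1 to 3 (0.72, SE 0.10, adjusted p = 0.00133). ARR4 rose from 53.9 to 76.5 FPKM (0.50, SE 0.08, adjusted p = 0.00232), ARR5 from 11.7 to 17.9 FPKM (0.59, adjusted p = 0.0228) and the receptor AHK2 from 5.67 to 8.08 FPKM (0.44, adjusted p = 0.00789). No pad4 library of ARR6 or ARR7 lay within the wild-type range. Of 16 auxin genes, 1 was called: IAA5, an auxin-induced repressor, rose from 4.71 to 8.42 FPKM (0.73, SE 0.14, adjusted p = 0.00802). Pairing gave 5 higher calls and 1 lower among the 16, against 15.7% and 15.4% of all loci.

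Of 17 abscisic acid genes, 4 were called lower (23.5%) and 1 higher, with a median of -0.21. COR15A (AT2G42540, chromosome 2, 17711032 to 17712330), a cold- and dehydration-induced chloroplast protein gene, was at 36.6, 39.6 and 37.8 FPKM in wild-type libraries 1 to 3 and 17.0, 14.9 and 14.3 FPKM in pad4 libraries 1 to 3 (-1.25, SE 0.12, adjusted p = 9.19e-05). It fell together with its neighbour COR15B. CYP707A2, which breaks down abscisic acid, fell from 16.5 to 11.3 FPKM (-0.51, SE 0.09, adjusted p = 0.00564), whereas CYP707A1, of the same function, rose from 5.70 to 8.15 FPKM (0.45, SE 0.11, adjusted p = 0.0212). HAI1, a phosphatase induced by the hormone, fell from 3.32 to 1.25 FPKM (-0.92, SE 0.19, adjusted p = 0.0118), and HAI2 fell as well (-0.49, adjusted p = 0.0262). The call on HAI1 ended without wild-type library 1 or 3 or pad4 library 3 (adjusted p up to 0.0579), and that on CYP707A1 without wild-type library 1 or 3 or pad4 library 2 or 3 (adjusted p up to 0.0857). The list held 2 lower calls without wild-type library 1, wild-type library 3 or pad4 library 3, and 10 lower and 2 higher in the paired fit. NCED3, the rate-limiting synthesis enzyme, averaged 37.2 ± 1.69 FPKM in wild type and 32.6 ± 0.725 FPKM in pad4 (-0.19, adjusted p = 0.264; paired adjusted p = 0.0246). Of 15 ethylene genes, ACO4, an ethylene-forming oxidase, fell from 594 to 432 FPKM (-0.46, SE 0.08, adjusted p = 0.00419). The synthase ACS2 rose from 6.68 to 9.40 FPKM (0.44, adjusted p = 0.036) and the receptor ERS1 from 37.3 to 43.4 FPKM (0.21, adjusted p = 0.0255). The call on ACS2 ended without wild-type library 1, 2 or 3 or pad4 library 1, 2 or 3 (adjusted p up to 0.138) and with a pseudocount of 0.1. That on ERS1 ended without wild-type library 1, 2 or 3 or pad4 library 1 or 3 (adjusted p up to 0.113) and in a fit of only the 6 +Fe libraries. Pairing gave 5 higher calls and 3 lower among the 15 ethylene genes, against 15.7% and 15.4% of all loci.

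Fe genes bear on the question of the series. Of 23 tested uptake and transport genes, 8 were called lower (34.8%) and 2 higher (8.7%), with a median of -0.03. The lower ones included synthases of nicotianamine, which chelates Fe for movement between cells: NAS1 (AT5G04950, chromosome 5, 1457645 to 1458890) was at 59.6, 59.6 and 53.1 FPKM in wild-type libraries 1 to 3 and 33.4, 35.2 and 35.2 FPKM in pad4 libraries 1 to 3 (-0.71, SE 0.07, adjusted p = 9.18e-05). NAS4 was at 215, 182 and 211 FPKM in wild-type libraries 1 to 3 and 141, 116 and 138 FPKM in pad4 libraries 1 to 3 (-0.62, SE 0.10, adjusted p = 0.0021), and NAS2 fell from 26.8 to 15.6 FPKM (-0.74, adjusted p = 0.0171). All pad4 libraries of NAS1 and NAS4 were below those of the wild type. FRD3 (AT3G08040, chromosome 3, 2566277 to 2572151), which loads citrate into the xylem, was at 21.2, 19.4 and 20.1 FPKM in wild-type libraries 1 to 3 and 13.1, 12.3 and 12.5 FPKM in pad4 libraries 1 to 3 (-0.64, SE 0.08, adjusted p = 0.000475). The nicotianamine-metal transporters YSL2 and YSL3, the proton pump AHA2 and the coumarin enzyme F6'H1 fell too (-0.41, -0.33, -0.28 and -0.63 log2 units). The higher ones were reductases of green tissue. FRO6 (AT5G49730, chromosome 5, 20201101 to 20204513) was at 13.8, 16.7 and 14.96 FPKM in wild-type libraries 1 to 3 and 33.4, 35.7 and 33.9 FPKM in pad4 libraries 1 to 3 (1.13, SE 0.10, adjusted p = 5.61e-05), and its neighbour FRO7, of the chloroplast, rose from 10.9 to 15.3 FPKM (0.45, adjusted p = 0.00217). The root uptake genes IRT1, the Fe transporter, and FRO2, the ferric reductase, were not called: IRT1 averaged 5.76 ± 0.419 FPKM in wild type and 4.61 ± 0.597 FPKM in pad4 (-0.27, adjusted p = 0.12) and FRO2 19.97 ± 1.29 FPKM in wild type and 20.4 ± 1.35 FPKM in pad4 (0.03, adjusted p = 0.87). The lower count was 4 without wild-type library 1, and 5 without wild-type library 3, pad4 library 2 or pad4 library 3. It was 3 without library 2 of both genotypes.

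Of 17 tested Fe-deficiency regulators, 2 were called lower and none higher (median -0.07). MYB72, a factor of the Fe-deficient root, was at 22.9, 21.3 and 22.1 FPKM in wild-type libraries 1 to 3 and 15.1, 15.2 and 15.5 FPKM in pad4 libraries 1 to 3 (-0.51, SE 0.09, adjusted p = 0.004), a call that ended with a pseudocount of 0.1 in place of 1 (adjusted p = 0.236). AT1G74770, annotated as an E3 ubiquitin ligase, fell from 8.43 to 5.78 FPKM (-0.49, adjusted p = 0.0418), a call that ended without wild-type library 1 or 3 or pad4 library 2 or 3 (adjusted p up to 0.155), with a pseudocount of 0.1 and in a fit of only the 6 +Fe libraries. The AT1G74770 call also ended without wild-type library 1 or 3 or pad4 library 1, 2 or 3 labelled -Fe. With a pseudocount of 0.1 none of the list was called lower. bHLH100 averaged 997 ± 31.3 FPKM in wild type and 1105 ± 53.9 FPKM in pad4 (0.15, adjusted p = 0.479; paired adjusted p = 0.0439). AT1G47400, on the same list, averaged 704 ± 47.0 FPKM in wild type and 581 ± 49.9 FPKM in pad4 (-0.28, adjusted p = 0.399; paired adjusted p = 0.016). With the block, 5 of the 17 were higher and 7 lower, against 15.7% and 15.4% of all loci. FIT, the master regulator of root Fe uptake, was under 1 FPKM in most of these libraries and was not tested. None of 3 tested Fe storage genes was called in limma, and 0 had an unadjusted p under 0.05. FER1 averaged 11.0 ± 0.774 FPKM in wild type and 10.9 ± 0.308 FPKM in pad4 (-0.01, adjusted p = 0.945) and FER3 16.9 ± 1.88 FPKM in wild type and 17.8 ± 1.61 FPKM in pad4 (0.07, adjusted p = 0.694). Of 13 genes of superoxide dismutases and copper, the copper transporter COPT2 fell from 15.5 to 9.10 FPKM (-0.72, SE 0.14, adjusted p = 0.00718) and the metal transporter ZIP4 from 44.2 to 35.9 FPKM (-0.29, SE 0.07, adjusted p = 0.0212). The ZIP4 call ended without wild-type library 1 or 3 or pad4 library 1 or 3 (adjusted p up to 0.0895). The paired fit called 5 of the 13 lower and 3 higher, against 15.4% and 15.7% of all loci, and without library 2 of both genotypes 0 were called.

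Marker lists of other tissues and states moved with genotype as follows, and their part in the results above was not tested. In bulk samples, fewer cells of a type and less RNA per cell cannot be told apart. Of 19 photosynthesis genes, 3 were called higher and none lower (median 0.13), while the paired fit called 9 higher and the fit without library 2 of both genotypes 0. LHCA4, of the photosystem I antenna, was at 677, 611 and 698 FPKM in wild-type libraries 1 to 3 and 977, 940.4 and 1073 FPKM in pad4 libraries 1 to 3 (0.59, SE 0.12, adjusted p = 0.00927). LHCB5 and LHCB6, of the photosystem II antenna, rose from 1605 to 2355 FPKM (0.55, adjusted p = 0.0137) and from 319 to 408 FPKM (0.35, adjusted p = 0.0169). The LHCB5 call ended without wild-type library 1 or 3 or pad4 library 2 or 3 (adjusted p up to 0.0696) and the LHCB6 call without wild-type library 1, 2 or 3 or pad4 library 1 or 3 (adjusted p up to 0.0758). The summed level of the list was 29499.8, 25763.5 and 29094.3 FPKM in wild type and 31641.4, 28253.6 and 32454.3 FPKM in pad4, so the groups overlapped, while in each of the 3 same-numbered pairs pad4 was higher. Of 7 tested root markers, NRT2.1, a nitrate transporter, was called lower, at 7.62, 6.401 and 7.56 FPKM in wild-type libraries 1 to 3 and 3.5, 4.15 and 3.89 FPKM in pad4 libraries 1 to 3 (-0.76, SE 0.09, adjusted p = 0.000333). SESA2, a seed storage albumin and the only tested seed gene, averaged 10.6 ± 0.308 FPKM in wild type and 12.8 ± 0.883 FPKM in pad4 (0.25, adjusted p = 0.103; paired adjusted p = 0.0229), and its groups did not overlap. None of 9 guard cell genes was called, and 0 had an unadjusted p under 0.05 in limma. MYB60, a guard cell transcription factor, averaged 25.4 ± 8.62 FPKM in wild type and 37.0 ± 9.93 FPKM in pad4 (0.54, adjusted p = 0.314; paired adjusted p = 0.00205). The paired fit called it and FAMA higher (paired adjusted p of FAMA = 0.00967), and none of the 9 lower. Of 11 touch and wounding genes, ERF6 fell from 104 to 73.0 FPKM (-0.50, SE 0.10, adjusted p = 0.0107) and CBF2 rose from 5.96 to 8.70 FPKM (0.49, adjusted p = 0.0463), a call that ended without wild-type library 1 or 2 or pad4 library 1, 2 or 3 (adjusted p up to 0.147), with no filter, with a pseudocount of 0.1, with median-of-ratios scaling, in a fit of only the 6 +Fe libraries and with the block in all 12. The paired fit called 3 of the 11 higher and 5 lower, against 15.7% and 15.4% of all loci. Without library 2 of both genotypes 0 were called (5 had an unadjusted p under 0.05 in limma with all libraries). Of 12 clock genes, RVE1 (AT5G17300, chromosome 5, 5690227 to 5692902), a morning factor, rose, at 17.3, 19.2 and 18.0 FPKM in wild-type libraries 1 to 3 and 38.3, 44.1 and 38.3 FPKM in pad4 libraries 1 to 3 (1.1, SE 0.07, adjusted p = 8.63e-06). GI, an evening gene, fell from 37.7 to 26.9 FPKM (-0.48, SE 0.08, adjusted p = 0.00286), and LUX, another, from 54.9 to 40.7 FPKM (-0.42, adjusted p = 0.0351). The LUX call ended without wild-type library 1 or 3 or pad4 library 1, 2 or 3 (adjusted p up to 0.132). The paired fit called 5 of the 12 clock genes higher and 4 lower, against 15.7% and 15.4% of all loci. The highest-expressed called genes with a symbol that are not yet given were SAG21, a stress-induced mitochondrial protein gene, NIA2, a nitrate reductase, and GER1, a germin-like protein gene. SAG21 fell from 1859 to 1304 FPKM (-0.51, SE 0.10, adjusted p = 0.00629) and NIA2 from 1015 to 735 FPKM (-0.47, SE 0.12, adjusted p = 0.0262), while GER1 rose from 838 to 1284 FPKM (0.62, SE 0.15, adjusted p = 0.0237). The NIA2 call ended without wild-type library 1 or 3 or pad4 library 2 or 3 (adjusted p up to 0.111) and the GER1 call without wild-type library 1 or 3 or pad4 library 1, 2 or 3 (adjusted p up to 0.101).

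The same contrast in the 6 libraries labelled -Fe, which share no library with it, called 5436 loci (28%), 2638 higher (13.6%) and 2798 lower (14.4%). Of the 756 loci called higher at +Fe, 362 (47.9%) were also called higher at -Fe and 107 (14.2%) were called lower. Of the 1150 called lower at +Fe, 592 (51.5%) were also called lower and 164 (14.3%) were called higher. The 954 loci called in the same direction were 50.1% of the calls at +Fe and 17.5% of those at -Fe. The difference of the 2 contrasts, tested as an interaction, was called at 2841 loci (14.6%), with 1368 differences above 0 (7.05%) and 1473 below 0 (7.59%), among them 287 of those higher and 543 of those lower at +Fe.

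The groups named above split on this comparison. Of the 14 phenylpropanoid genes, 9 were also called lower at -Fe and none higher, and PAL1 fell there by a similar amount (-1.02, SE 0.11, adjusted p = 4.52e-05). Of the 21 salicylic acid response genes, 16 were called lower at -Fe. PR1 at -Fe was at 272, 332 and 236 FPKM in wild type and 69.3, 65.0 and 75.1 FPKM in pad4 (-1.98, SE 0.14, adjusted p = 1.35e-06). Its genotype difference differed between the labels (interaction -2.24, adjusted p = 2.19e-05), as did that of PR2 (-1.60, adjusted p = 0.000452). PDF1.2a and HSP23.6-MITO were called in opposite directions under the 2 labels. PDF1.2a at -Fe was at 35.3, 20.2 and 40.0 FPKM in wild type and 674, 679.8 and 344 FPKM in pad4, a rise (4.1, SE 0.35, adjusted p = 5.63e-06; interaction 5.65, adjusted p = 1.99e-05). HSP23.6-MITO at -Fe was at 677, 883 and 661 FPKM in wild type and 8.14, 7.73 and 9.86 FPKM in pad4, a fall (-6.27, SE 0.15, adjusted p = 2.44e-10; interaction -8.17, adjusted p = 1.08e-09). Of the 11 heat shock genes, 9 were called lower and 2 higher at -Fe, and the interaction was called for 10. HSP23.6-MITO was thus higher at -Fe than at +Fe in wild type and lower at -Fe in pad4. Of the 8 genes of the jasmonate and ethylene branch, 6 were called higher at -Fe and none lower. Of the 13 camalexin and indole glucosinolate genes, 7 were called higher and 3 lower at -Fe. Of the 12 genes of jasmonate synthesis and turnover, 4 were called higher and 4 lower. Salicylic acid synthesis had 6 lower and 1 higher of 13, and cytokinin 3 higher and none lower of 11.

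**Figure D5:**
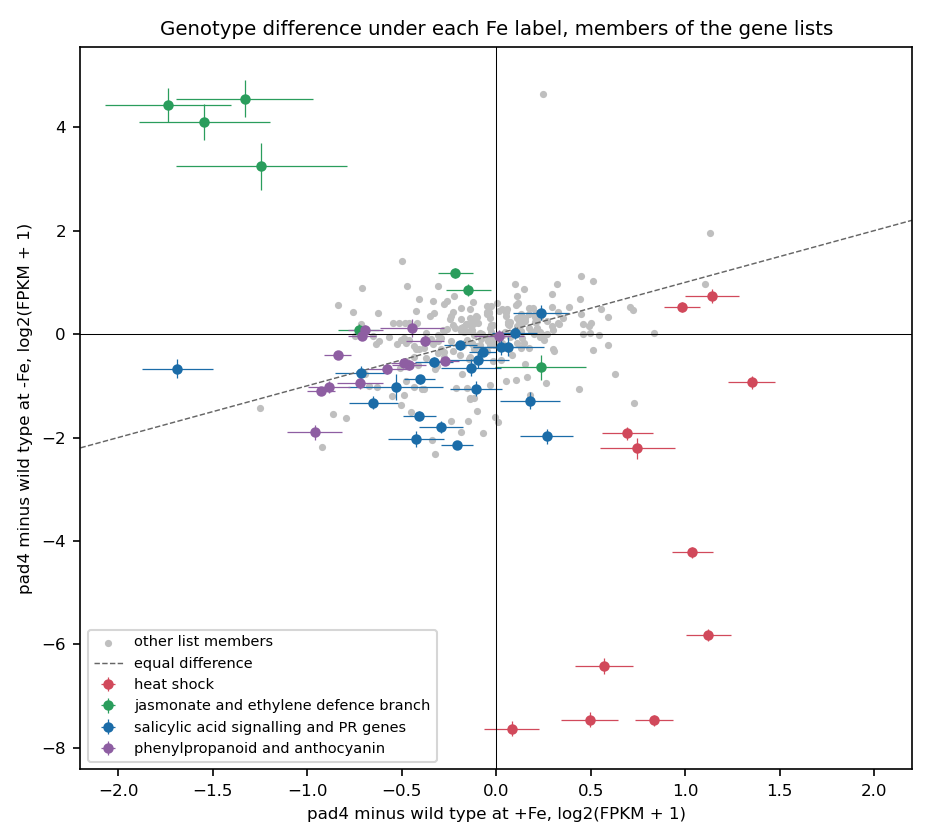
Each point is 1 member of the gene lists, with its pad4 minus wild-type difference at +Fe on the x axis and at -Fe on the y axis, both on the log2(FPKM + 1) scale; coloured groups carry SE bars, and the dashed line marks equal differences. Defensins (green) lie at upper left, heat shock genes (red) mostly at lower right, and phenylpropanoid genes (purple) mostly at lower left near the line.

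Called loci were spread over the genome. The share of tested loci called on chromosomes 1 to 5 ran from 9.28% on chromosome 3, which carries PAD4, to 10.8% on chromosome 4. Within 1 Mb on either side of PAD4, 40 of 428 loci were called (9.35%), and within 3 Mb 119 of 1170 (10.2%). Both are near the 9.83% of all loci tested.

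The authors' deposited table of the same comparison gave q under 0.05 for 2637 of 20343 loci (13%), 1227 higher and 1410 lower in pad4. Of the 1906 loci called here, 1503 were among them, all in the same direction in the authors' deposited table. Those are 78.9% of the calls here and 57% of the authors'. Some genes named by rule differed between the 2. Not called here but under q 0.05 in the authors' table were PR2 (q = 0.00254), CBP60g (0.000984) and PBS3 (0.0146), all lower. MYB60 (0.000984), higher, was another. Called here but not under q 0.05 there were EDS5 (q = 0.0758), ZIP4 (0.0562), LHCB6 (0.0507) and ERS1 (0.241). At q under 0.01 the authors' deposited table held 1631 loci (8.02%), and the authors marked 271 loci as significant.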

How the data were processed

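RNA-seq expression was deposited as FPKM per locus for 12 libraries, 3 per genotype and Fe label, and the authors' deposited tables add a log2 fold change with a p-value and q-value per locus. The submitters' processing notes name TAIR10; the aligner, the counting tool and the strand setting are not stated in those notes as used here. A read-count test had been planned, but the files hold FPKM, so log2(FPKM + 1) was fitted in limma 3.58.1 (R 4.3.3) with empirical Bayes trend over all 12 libraries, at Benjamini-Hochberg adjusted p under 0.05. Differences on this scale understate low genes. Loci needed 1 FPKM in at least 3 of the 6 +Fe libraries. In the gene lists, a gene with several records was represented by the record with the highest mean. HSFA7A, AT2G36255 and ATCG01020, named outside the lists, have 2 records each, and only the selected record is given. In the whole expression data 354 loci merge several genes. The fit was tested on simulated data whose noise was drawn separately for each locus and library. That test therefore does not cover departures shared by libraries of 1 number or by many loci of 1 library. Tables and plots used Python 3.11.15, pandas 2.3.3 and matplotlib 3.10.9.

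The pairing of the +Fe groups by replicate number was read from the data rather than from the labels. In 3 pairs of 1 number, departures from the group mean had correlations of 0.207 to 0.506, each above 0.1. All 6 of 6 libraries correlated best with their own number. The unlike-numbered pairs of wild-type library 1 with pad4 library 3 (0.194) and wild-type library 3 with pad4 library 1 (0.119) were above 0.1 as well. The data thus set library 2 apart but do not settle how libraries 1 and 3 pair. Across all 12 libraries the numbers did not pair in this way. Library 2 of wild type at +Fe had a correlation of 0.556 with library 2 of wild type at -Fe. Its correlation with library 2 of pad4 at -Fe was -0.373, and with library 3 of that group 0.467. The paired fit used only the 6 +Fe libraries with the number as a block, a block chosen from these data.

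Named genes were the 12 largest rises and falls with a symbol, 5 FPKM and no overlap; up to 4 called members per list by adjusted p; 20 preset genes; the 6 highest-expressed and the 6 with the smallest adjusted p; and the 6 with the smallest interaction p. The remaining list members named were picked after their values were seen. The comparison, lists and rule were chosen with earlier results of these data known. Alternatives were other filters, pseudocounts, scalings and omitted libraries. No sequence is shown, since none of the tables used here holds one. Depth is unknown for FPKM, so no counting interval is given.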

Additional observations from a re-analysis of the deposited data

Results flagged for a closer look

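The genotype difference differed between the Fe labels for 65 of the genes named by rule, by the interaction in limma at adjusted p from 9.51e-10 to 0.0488. The list members picked after their values were seen were not included. The genes named by rule were chosen in part by this interaction and by the +Fe difference that enters it, so the number of 65 is a description. Values are the log2 difference pad4 minus wild type at -Fe minus that at +Fe, and no cause was tested. Among heat shock genes and their cochaperones it was -8.17 for HSP23.6-MITO, -6.95 for HSP17.4, -5.98 for HSP17.6II, -5.26 for HSP17.6A, -3.85 for EGY3, -3.63 for HSP70T-2, -2.96 for HSP70, -2.62 for HSP90.1, -2.28 for HSP101, -1.83 for BAG6 and -0.46 for HSFA2. All were called higher in pad4 at +Fe.

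In the jasmonate and ethylene branch it was 6.17 for PDF1.3, 5.88 for PDF1.2c, 5.65 for PDF1.2a and 0.81 for ORA59. Other jasmonate and ethylene genes gave -0.65 for AOC3, 0.70 for AOS, -1.05 for CYP94C1, 0.73 for VSP2, -1.50 for ACS2 and 1.91 for ERF6.

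Among immune genes it was -2.24 for PR1, -1.60 for PR2, -1.12 for FMO1, -0.68 for ALD1, -0.82 for DMR6, -0.68 for PBS3, -0.66 for ICS1, -0.60 for EDS1, -0.68 for WRKY40 and -0.47 for WRKY70. It was above 0 at 0.91 for ICS2, 1.02 for PCC1, 0.94 for ACD6, 0.52 for DIR1 and 0.30 for ADR1-L1. The receptor genes gave -1.58 for CRK6 and -0.96 for RLP23. The indole genes gave 1.60 for CYP81F2, 0.70 for PEN2, 0.51 for GGP1 and -0.87 for PAD3.

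Hormone genes gave -2.05 for IAA5, -1.25 for HAI1, -0.81 for ARR7 and -0.47 for ARR4. Metal genes gave 0.81 for FRO6, 0.77 for NAS1, 0.48 for NAS4, 0.45 for FRD3, 0.77 for COPT2 and 0.86 for AT1G47400. Flavonoid genes gave 0.43 for F3H and 0.68 for DFR. The others were SESA2 at 4.39, DIN2 at -1.61, COR15B at 1.22, NRT2.1 at 1.19, ATCTH at -1.05, BXL1 at 0.87, MDHAR at 0.61, BT5 at -0.59, LHCB2.3 at 0.58, GI at -0.43 and DIN10 at 0.34. SESA2 was listed at 0 in all 3 wild-type libraries and stood at 21.1, 25.3 and 25.7 FPKM in pad4 labelled -Fe, against 10.2, 10.6 and 10.8 FPKM in wild type labelled +Fe.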

How the results depend on the processing

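The replicate block in the 6 +Fe libraries moved the 1906 calls to 6032, 3053 higher and 2979 lower. Leaving out 1 library gave 1042 to 2099 in all, 386 to 850 higher and 656 to 1249 lower. Leaving out library 2 of both genotypes gave 901, 357 higher and 544 lower. A difference of at least 1 log2 unit left 137, 67 higher and 70 lower, and left 712 of 5436 at -Fe and 660 of 2841 for the interaction. The authors' deposited table gave 1631 at q under 0.01 in place of 2637. Other settings gave 1800 to 2027 calls. Of 91 called genes named by rule, 73 were called without any 1 of the 6 libraries. In the settings other than omission of single libraries or of library 2 of both genotypes, 84 were called throughout. Some of those settings used only the 6 +Fe libraries. None of the 91 changed direction in any setting run. The list members picked after their values were seen are not among the 91. The calls on AHK2, COPT2, CYP94C1, ERF6, LHCA4, SAG21 and WRKY70 ended only without library 2 of both genotypes (adjusted p 0.0551 to 0.0893), and the cause was not tested. Calls at +Fe on ACS2, AT1G74770, CBF2, HSP70 and PDF1.2c also ended when single libraries labelled -Fe were left out. Those libraries enter the shared estimate of the spread. Depth is unknown, so low genes such as ALD1 or ICS2 have no counting error.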

Other observations

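Gene families by shared symbol were counted after their values were seen, 57 families with at least 15 tested members, and these counts carry no test. Of 33 cysteine-rich receptor-like kinase (CRK) genes, 15 were called lower in pad4 at +Fe (45.5%, against 5.93% of all loci) and none higher, with a median of -0.31. Of 42 receptor-like protein (RLP) genes, 11 were called lower and none higher. Of 41 UGT glycosyltransferase genes, 9 were called lower and 2 higher, and of 23 GSTU glutathione transferase genes 5 lower and none higher. Of 107 cytochrome P450 (CYP) genes, 23 were called lower and 5 higher, and of 23 beta-glucosidase (BGLU) genes 7 lower and 2 higher. Of 19 XTH cell wall genes, 4 were called higher (3.9% of all loci were) and 1 lower.

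The locus AT3G15450, annotated as like the stem-specific protein TSJT1, had the largest rise among called loci with a gene identifier, at 5.34, 6.22 and 5.54 FPKM in wild-type libraries 1 to 3 and 48.3, 51.3 and 54.9 FPKM in pad4 libraries 1 to 3 (2.97, SE 0.08, adjusted p = 1.73e-08). It has no symbol in the reference used and was singled out after its values were seen. AT2G36255, with no annotation, was at 88.8, 62.3 and 71.9 FPKM in wild-type libraries 1 to 3 and 14.6, 12.1 and 21.3 FPKM in pad4 libraries 1 to 3 (-2.16, SE 0.17, adjusted p = 3.5e-05) and was listed at 0 in all 6 libraries labelled -Fe. An unnamed locus on chromosome 5 (XLOC_023392, 14088431 to 14089949) was at 0.233, 0.179 and 0.0811 FPKM in wild-type libraries 1 to 3 and 13.9, 17.3 and 15.2 FPKM in pad4 libraries 1 to 3, and pad4 was at 16.2, 17.9 and 24.5 FPKM at -Fe. The chloroplast locus ATCG01020 was listed at 0 in pad4 libraries 1 and 2 and stood at 79.4 FPKM in library 3, against 328, 297 and 470.4 FPKM in wild type.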
